A study of Arabidopsis thaliana with 18 samples.

Results

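In wild-type shoots of the Arabidopsis thaliana accession C24, 371 chromosomal regions carried a peak of H3K27me3 in both deposited peak lists while neither list of the accession Col held a peak there. H3K27me3, trimethylation of histone H3 at lysine 27, is deposited by the Polycomb repressive complex PRC2 and is typically found over the whole body of genes that are kept silent in a tissue. CURLY LEAF (CLF) is one of the methyltransferase subunits of PRC2 in Arabidopsis, and clf mutants express floral and seed genes in leaves because the mark is reduced at some of its targets. Many genes with the mark are developmental regulators, tissue-specific enzymes and defence genes.

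The regions were chosen by merging overlapping peaks of all 9 deposited lists on chromosomes 1 to 5 (at least 1 shared base) and keeping those with a peak in both wild-type C24 lists and in neither wild-type Col list. They made up 371 of 9443 merged regions (3.93%). The number depended on the lists: with 1 of the 4 parental lists left out of the rule it was 668 to 2407, 668 and 1274 without Col replicate 2 and 1, and 1136 and 2407 without C24 replicate 2 and 1. The reverse choice, both Col lists and neither C24 list, gave 77 regions (0.815%), and 1529 regions (16.2%) had a peak in all 4 parental lists. The parental lists were used for the choice, so presence there is no result, and "C24-only" below refers to those 4 lists alone.

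All material was shoots of 14-day-old seedlings from sucrose-containing MS plates in short days (8 h of light and 16 h of darkness, kept at 22 °C and 18 °C). ChIP-seq peaks of H3K27me3 were available as 2 lists for each wild-type genotype, namely Col, C24 and their F1 hybrid, and as 1 list for each matching clf mutant. Only the clf mutants had mRNA-seq, in 3 libraries per genotype, called Col clf, C24 clf and clf F1 here. Col clf carries the T-DNA insertion SALK_139371 and C24 clf an EMS point mutation that replaces an aspartate by asparagine in the SET domain, and the clf F1 is the cross of both mutants. Accession and clf allele therefore differ together and cannot be told apart. All mRNA groups lack normal CLF, so the mRNA levels are those of mutants and not of the wild-type plants in which the regions were chosen. Reads of all genotypes were placed on the TAIR10 build, which is derived from Col.

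The lists differed in depth. Tags in peaks of chromosomes 1 to 5 ran from 840780 in wild-type C24 replicate 2 to 8266237 in wild-type Col replicate 1. Wild-type Col replicate 2 had the fewest peaks, 2898 over 4.29 Mb, against 4851 peaks over 16.7 Mb in replicate 1. Absence from a list was not absence of the mark. Of 1619 regions with a peak in all 8 other lists, 176 had none in wild-type Col replicate 1, and of 1992 such regions 549 had none in wild-type Col replicate 2. CLF mRNA (AT2G23380) was 1.21, 0.99 and 1.37 RPKM in Col clf, 7.2, 7.14 and 8.35 RPKM in C24 clf and 4.35, 3.93 and 4.08 RPKM in clf F1. RPKM are read numbers scaled to gene length and library size. The shoot label fitted 5 of 5 photosynthetic markers, whose summed level lay between 20844 and 28964 RPKM in every library, while the root hair markers COBL9, EXP7 and EXP18 were at or near 0. Summed levels of 5 seed markers were 0.33 to 3.91 RPKM in Col clf, 76.9 to 209 RPKM in C24 clf and 2.90 to 58.4 RPKM in clf F1, with CRU2 and LEC1 listed at 0 in all 9 libraries. Those of 4 floral markers were 71.0 to 90.1, 290 to 345 and 146 to 170 RPKM, and those of 5 root markers 94.6 to 107, 211 to 217 and 131 to 148 RPKM. Nearly all of the root sum was PYK10, at means of 102, 213 and 141 RPKM, since WER was under 1 RPKM and the others were at or near 0. Their part in the mRNA differences below was not tested.

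The C24-only regions were narrower and lower-scoring than regions shared by both accessions. Their median width was 2499 bp, with a range of 455 to 9016 bp, against 4278 bp for regions in all 4 parental lists. These are widths of merged regions. Wild-type Col peaks were merged into the regions in all 4 lists and can themselves widen them, while C24-only regions lack such peaks by rule. The part of this in the width difference was not tested. In wild-type C24 replicate 1 the median of their best peak scores was 291, at the 38.6th percentile of that list, against 1222 and the 81.8th percentile for regions in all 4 lists. The scores are the authors' own peak values and were part of the choice, so these figures are descriptive. At the edge of the rule, 70 C24-only regions (18.9%) had a lower best C24 score under 60, near the lowest deposited score of 50. Just outside the rule, 903 regions had peaks in both C24 lists and in Col replicate 1 alone, and 297 had them in both C24 lists and in Col replicate 2 alone. A Col score under 60 was found in 10 of the 903 (1.11%) and in 35 of the 297 (11.8%). The nearest wild-type Col peak lay a median of 4060 bp away from a C24-only region, within 1000 bp for 64 of them (17.3%) and over 10000 bp away for 90 (24.3%).

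In the wild-type F1, which inherits 1 genome from each accession, 293 of the 371 regions (79.0%) had a peak in at least 1 of the 2 lists. The lists themselves differed, with 232 regions (62.5%) in replicate 1 and 172 (46.4%) in replicate 2, and 111 (29.9%) in both. There was no F1 peak for 78 regions (21.0%). With 1 parental list left out of the rule, the share in at least 1 F1 list ran from 19.1% without C24 replicate 1 to 93.6% without Col replicate 1. Regions in all 4 parental lists were found in 98.1% and 97.3% of cases in the same F1 lists, and Col-only regions in 92.2% and 29.9%. Of all 9443 merged regions, 58.4% and 39.4% had a peak in these lists, and 65.2% in at least 1 of them. The 111 regions found in both F1 lists had a median width of 4090 bp and a median lower C24 score of 107, and the 78 found in neither had 1728 bp and 66.6. Regions with peaks in both F1 lists were thus higher-scoring in C24 than regions with none. They were also wider, but F1 peaks were merged into the regions and can themselves widen them. The part of width and score in F1 presence was not tested.

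**Figure D1:**
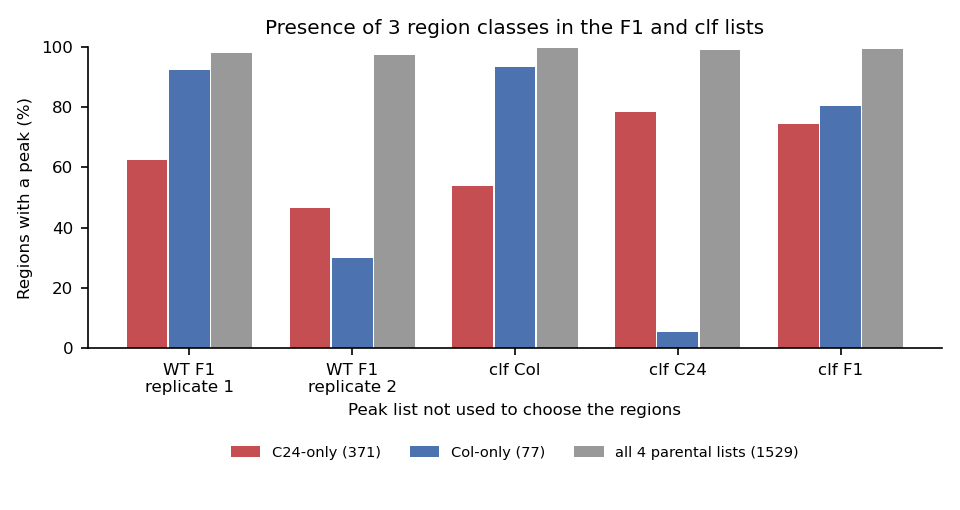
Percent of regions with a peak (y axis) in each of the 5 lists not used for the choice (x axis), for 371 C24-only, 77 Col-only and 1529 regions in all 4 parental lists. C24-only regions stood at 46.4% to 78.4%, regions in all 4 lists at 97.3% or more, and Col-only regions were at 5.19% in clf C24 and 93.5% in clf Col.

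In the clf mutants, which had 1 list each, 291 C24-only regions (78.4%) had a peak in clf C24, 276 (74.4%) in clf F1 and 200 (53.9%) in clf Col. Of all 9443 merged regions, 59% had a peak in clf C24, 60% in clf F1 and 56.8% in clf Col. The clf Col share of the C24-only regions was thus near that of all merged regions. The name C24-only thus holds for the wild-type lists and not for the Col mutant. At 54 regions (14.6%) the clf Col peak scored at or above that list's median. The 2 choices were not mirror images, since only 4 of the 77 Col-only regions (5.19%) had a peak in clf C24. They also rest on unequal lists. Median score percentiles of C24-only regions were 38.6 and 54.8 in C24 replicates 1 and 2. Those of Col-only regions were 67.3 and 48.9 in Col replicates 1 and 2. The part of this in the clf shares was not tested. Of the C24-only regions, 192 had a peak in both parental clf lists, 99 in clf C24 alone, 8 in clf Col alone and 72 in neither. These are counts of listed peaks with no replicate, and no test was possible. With 1 parental list left out of the rule, the shares ran from 19.6% to 88.0% in clf C24, 19.0% to 87.4% in clf F1 and 14.0% to 79.3% in clf Col, lowest without C24 replicate 1 and highest without Col replicate 1.

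The 5 lists outside the rule gave 24 combinations. All 5 lists held a peak at 76 regions (20.5%), and 31 regions (8.36%) had none and so were seen only in wild-type C24. A further 48 regions lacked only F1 replicate 1, 48 lacked only F1 replicate 2, and 11 were found outside wild-type C24 only in clf C24. The 200 regions with a clf Col peak had a median width of 3753 bp and the 171 without one 1848 bp. The clf Col peaks were merged into these regions and can themselves widen them. At least 1 F1 list had a peak at 178 of the 200 (89.0%) and at 115 of the 171 (67.3%). The 99 regions with a clf C24 and no clf Col peak had peaks in 3 C24 lists and in no Col list of either genotype. Of these, 74 had a peak in clf F1 and 74 in at least 1 wild-type F1 list.

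**Figure D2:**
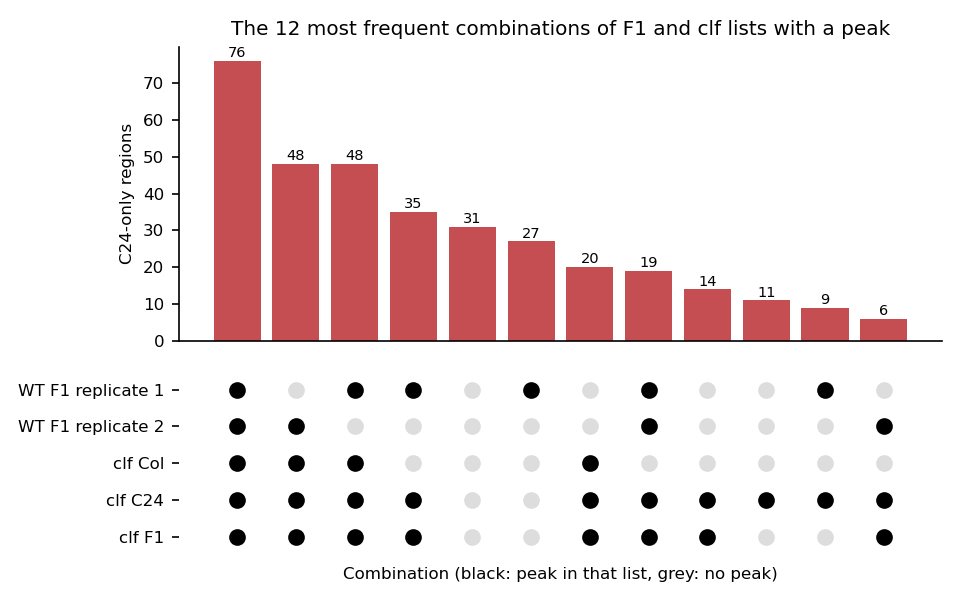
Number of C24-only regions (y axis) for the 12 most frequent combinations of wild-type F1 and clf lists that held a peak. Black points mark a list with a peak and grey points a list without one; the largest combination, with 76 regions, has a peak in all 5 lists, and the fifth, with 31 regions, has none.

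By the lower of the 2 best C24 scores, the top C24-only region lay over BAM2 (AT3G49670), a receptor kinase related to CLAVATA1 that acts in meristem and anther development, at chr3:18417502-18420111 (TAIR10). Its scores were 2747 and 840 in the wild-type C24 lists, 1010 and 549 in the F1 lists, 494 in clf C24 and 302 in clf F1, and neither Col genotype had a peak. The region over WAK1 (AT1G21250), a wall-associated receptor kinase that binds pectin, at chr1:7439730-7443147, also lay over AT1G21260. It had the same pattern as that of BAM2, with peaks in both F1 lists, clf C24 and clf F1. So did the region at chr1:17573042-17577971, which covers 34.6% of the MADS-box gene AGL102 (AT1G47760). The region chr5:5621331-5625096 over AT5G17100 had peaks in C24 lists alone, with scores of 1115 and 299 in wild-type C24 and 931 in clf C24, and none in either F1 list or in clf F1. A peak of wild-type Col replicate 2 lay 246 bp from this region, so merging peaks up to 500 bp apart would take it out of the C24-only regions. The region chr2:2098647-2101460 over AT2G05642 had peaks in wild-type C24, clf C24 and F1 replicate 2.

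At MAF1 (AT1G77080), also known as FLM, a MADS-box repressor of flowering, a 6044 bp region at chr1:28954425-28960468 covered the whole gene. The peak of wild-type C24 replicate 1 spanned all of it, while replicate 2 had 2 short peaks of 590 and 968 bp, and the F1 lists had peaks with scores of 999 and 92.8. None of the 3 clf lists held a peak there. At DOG1 (AT5G45830), the regulator of seed dormancy, the region chr5:18589788-18595293 had peaks in all 5 other lists, and clf Col scored 1343 there. Regions over PR1 (AT2G14610), the salicylic acid-responsive marker of immunity, at chr2:6240329-6242951, and over UGT72E1 (AT3G50740), a glucosyltransferase of lignin precursors, at chr3:18854941-18857501, likewise had clf Col scores of 1930 and 2529. At these 3 genes the Col genome thus carried a listed mark in the mutant and none in the wild-type lists.

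**Figure D3:**
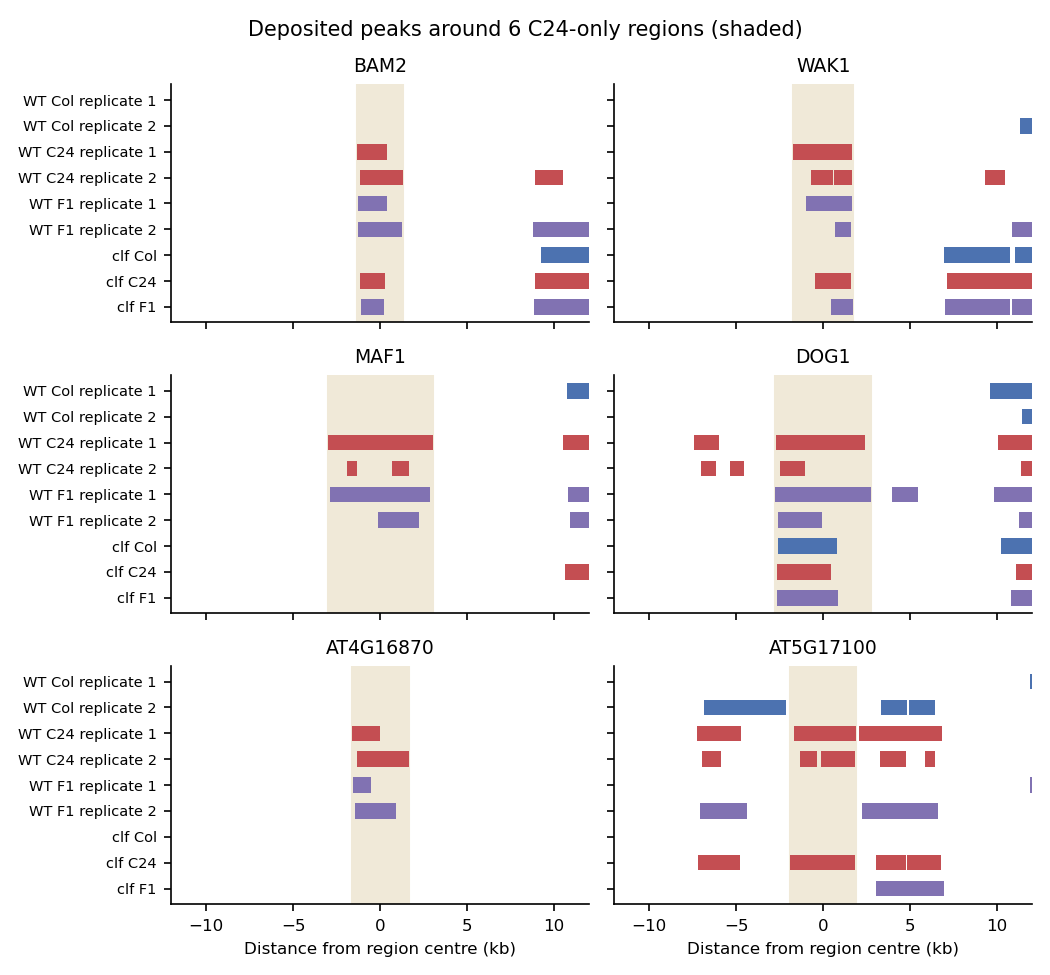
Deposited peaks (bars) of the 9 lists within 12 kb of the centre of 6 C24-only regions (shaded), as distance from the centre in kb; blue is Col, red C24 and purple F1. Inside the shaded regions, BAM2 and WAK1 show peaks in C24 and F1 lists only, MAF1 shows none in the 3 clf lists, DOG1 shows all 3 clf lists, and neither wild-type Col list has a bar inside a shaded region.

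The regions lay over 556 genes of the RefSeq TAIR10.1 gene table (at least 1 shared base), 442 of them covered over at least 50% of their length, and 24 regions had no gene. Protein-coding genes were 80% of the 556, against 72.4% of all genes on chromosomes 1 to 5, and 21 of the 556 also touched a wild-type Col peak elsewhere. RPKM values were deposited for 489 of the genes. In the clf mutants these genes were mostly low, with a median of the mean level of 0.0511 RPKM against 1.51 RPKM for all genes and 0.234 RPKM for genes below regions in all 4 parental lists. Genes below Col-only regions were lower still, at 0.0183 RPKM. 148 of the 489 (30.3%) were listed at 0 in all 9 libraries, against 24.4% of all genes and 38.2% of genes below Col-only regions. A listed 0 can be a failed estimate, since LHCB1.3, an abundant antenna protein gene, was also listed at 0 in all 9.

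Among the low genes were the root hair genes RHS6, SHV2 (the COBL9 above, needed for root hair tip growth) and RSL2, a bHLH regulator of root hair growth, none of which reached a mean of 0.1 RPKM. The gene names also gave 22 transcription factors, 12 of them below 0.1 RPKM, with WRKY71, WIP5 and the zinc finger gene DAZ3 listed at 0 in all libraries. MYB24, a regulator of stamen development, reached a mean of 0.0467 RPKM in clf F1 and less in both parents. These groups were put together from the names after their values had been seen. The lists of flowering, meristem, seed, immune receptor, glucosinolate and Polycomb genes taken for the report held 24, 9, 10, 17, 8 and 11 genes. Of these listed genes, only MAF1 of the flowering list and DOG1 of the seed list lay below C24-only regions. Below regions in all 4 parental lists lay 9, 0, 5, 0, 7 and 0 of them. The lists are not complete families, since the immune receptor gene ADR1 lay below a C24-only region and was in no list.

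The levels of these genes in C24 clf and Col clf were compared with limma on log2(RPKM + 1), adjusted by Benjamini-Hochberg over the 17819 genes that reached 1 RPKM in 3 or more libraries. Of the 489, 162 passed that filter. 59 of the 162 were higher in C24 clf at an adjusted p below 0.05 and 52 lower, 36.4% and 32.1%, where all tested genes had 31.8% higher and 12.7% lower. The median log2 difference was 0.07 over the 162 and 0.13 over all tested genes. After quantile normalization, which took the median of all genes from 0.13 to 0.01, the counts were 43 higher and 58 lower, with 21.5% and 20.3% of all tested genes. Below regions made from peaks of a score of at least 100 in every list, 48 genes were higher and 17 lower. That minimum also dropped Col peaks of lower score, so other regions could enter, and it gave 255 regions. The balance of directions thus differed for another set of regions. The number of tested genes below these 255 regions is not given here. The 48 and 17 therefore cannot be set against the shares of the 162 or of all tested genes. Genes passing the filter only through the group in which they were high had to differ, so these counts describe the 162 and not all members. In 5 of the 59 higher genes C24 clf alone held a library at 1 RPKM or more, and in 4 of the 52 lower genes Col clf alone did. Further called genes of both directions had such libraries in clf F1 and the parent with the higher level, and none in the other parent. Among the higher ones were AT2G05642, AT3G28320, AT5G17100, AT5G24240, AT2G15555, AT3G53040 and PDF1.4. Among the lower ones were AT4G16870, AT3G16670, AT4G20480, AT1G51270, AT2G40010, AT1G66660, AT1G21260 and AT2G24755. The differences of all these genes below should be read with this limit.

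Of the 10 genes with the largest lower levels in C24 clf, AT4G16870, annotated as a pseudogene at chr4:9483556-9486844, had 39.51, 41.38 and 44.35 RPKM in Col clf, was listed at 0 in all 3 C24 clf libraries and had 21.42, 21.77 and 18.72 RPKM in clf F1 (limma adjusted p 3.8e-13 for C24 clf against Col clf). The peaks of the wild-type C24 lists in that region, which also touches AT4G16857, held 329 and 436 tags. AT3G16670 had 27.33, 20.28 and 25.81 RPKM in Col clf, 0.05, 0.21 and 0.00 in C24 clf, and 6.10, 7.02 and 8.53 in clf F1, a log2 difference of -4.54 between the parents (SE 0.136, limma adjusted p 2e-10). In both genes the F1 libraries lay between the parents and overlapped neither, while parental libraries apart were part of the choice. The other 8 were AT4G20480, AT1G51270, AT1G06640, AT2G40010, AT1G66660, AT1G21260, AT2G24755 and AT1G23950, with log2 differences from -4.47 for AT4G20480 to -2.01 for AT1G23950. AT1G66660 was listed at 0 in all 3 C24 clf libraries. The regions of these 10 genes had a peak in clf C24 for 7 genes and in clf Col for 1.

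Of the 10 genes with the largest higher levels, AT2G05642 had 0.10, 0.00 and 0.02 RPKM in Col clf, 36.95, 43.98 and 44.71 in C24 clf and 20.65, 19.39 and 15.10 in clf F1 (log2 difference 5.36, SE 0.116, limma adjusted p 1.1e-11). AT3G28320 and AT5G17100 were listed at 0 in all Col clf libraries and had 13.01, 14.69 and 15.30 and 15.12, 13.35 and 13.22 RPKM in C24 clf. AT5G17100 was thus high in the mutant of the accession whose lists alone held peaks at its region, though a wild-type Col peak lay 246 bp away. The pseudogene SADHU10-1 (AT3G58865), of a family of plant retroposons, rose from 2.06, 1.76 and 2.29 RPKM in Col clf to 16.63, 15.09 and 17.50 in C24 clf, with 12.18, 9.28 and 11.82 in clf F1 (log2 difference 2.52, SE 0.11, limma adjusted p 6.9e-09). AT1G66100 had 74.61 to 81.44 RPKM in Col clf and 293.4 to 345.8 RPKM in C24 clf. The remaining genes were AT5G24240, AT2G15555 (listed at 0 in Col clf), AT3G53040, PR1 and AT1G51830, with log2 differences of 2.92 for AT5G24240 to 1.66 for AT1G51830. AT1G51830 passed the filter through C24 clf alone, so its difference is a description. AT3G53040 was highest in C24 clf replicate 1, at 8.36 RPKM against 3.43 and 4.06, the library in which the seed marker CRU3 was also highest, at 121.67 RPKM against 44.66 and 49.78. The regions of these 10 genes had a peak in clf C24 for 8 genes and in clf Col for 6. In all 20 genes the clf F1 mean lay between the parental means. The 20 were chosen for large parental differences and no share over all tested genes was taken, so this count only describes them.

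**Figure D4:**
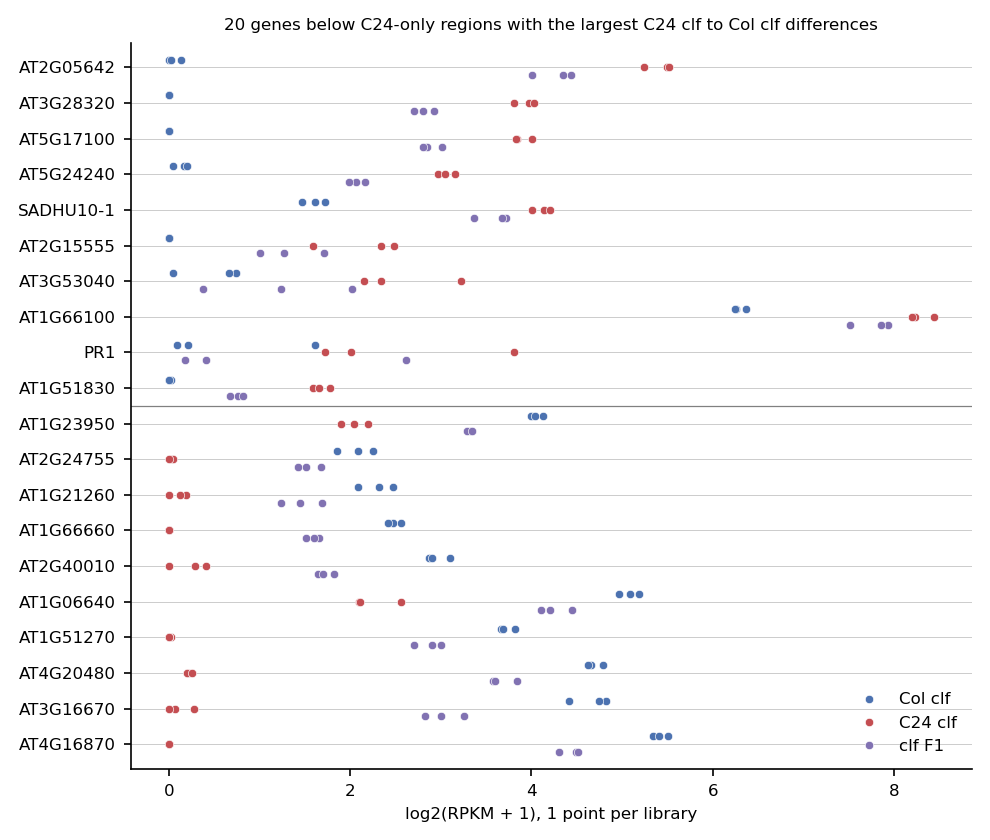
log2(RPKM + 1) of the 10 genes below C24-only regions with the highest (above the line) and the 10 with the lowest C24 clf to Col clf differences, 1 point for each of the 3 libraries per genotype (blue Col clf, red C24 clf, purple clf F1). The Col clf and C24 clf points do not overlap in any gene, which the choice of genes required; PR1 has 1 library of each group far above its other 2.

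MAF1 mRNA was 29.59, 29.10 and 31.27 RPKM in Col clf, 8.25, 9.38 and 10.06 in C24 clf and 17.64, 17.79 and 15.78 in clf F1. C24 clf was lower by a log2 difference of -1.60 (SE 0.0836, limma adjusted p 3.3e-08), and clf F1 differed from both parents, by -0.78 from Col clf and 0.82 from C24 clf (limma adjusted p 9.7e-05 and 3.5e-05). DOG1 was at 4.18, 4.29 and 4.25 RPKM in Col clf, 1.17, 1.57 and 1.78 in C24 clf and 2.79, 2.34 and 2.63 in clf F1, a log2 difference of -1.07 between the parents (SE 0.107, limma adjusted p 9.5e-06). For both genes the accession with the wild-type peaks had the lower mRNA in the mutant. BAM2 went the other way, at 17.24, 15.70 and 17.81 RPKM in Col clf and 26.78, 25.83 and 31.43 in C24 clf (log2 difference 0.69, SE 0.0864, limma adjusted p 5.8e-05). The clf F1 libraries had 21.17, 19.15 and 20.15 RPKM of BAM2, which differed from Col clf only with a replicate block, at an adjusted p of 0.0241 against 0.103 without it.

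A group of 9 defence genes below the regions was again put together from gene symbols after their values had been seen. Only 152 of the 556 genes (27.3%) had a symbol, so defence genes known by locus ID alone are not in the group. The 6 of the 9 that passed the filter were higher in C24 clf, where 31.8% of all tested genes and 36.4% of the 162 were. As the group was put together by hand, this count is no result about defence genes. WAK1 had 6.92, 9.54 and 9.75 RPKM in Col clf, 23.32, 21.72 and 19.28 in C24 clf and 5.41, 5.16 and 5.29 in clf F1. AT1G21260, below the same region, went the other way, at means of 3.93 RPKM in Col clf and 0.0767 in C24 clf. The 3 groups of WAK1 did not overlap, and the F1 lay below both parents, by -0.62 from Col clf and -1.83 from C24 clf on the log2 scale (limma adjusted p 0.00455 and 6.6e-07). AZI1, a lipid-transfer-like protein that primes systemic immunity, was at 3.0 ± 1.28 RPKM in Col clf and 9.51 ± 0.629 in C24 clf (SD, n = 3), and the defensin gene PDF1.4 at 0.49 ± 0.442 and 3.48 ± 1.77. The differences of the helper immune receptor ADR1 (0.31) and of MOS2 (0.28), an RNA-binding protein needed for immunity, were smaller. PR1 had 0.16, 2.06 and 0.06 RPKM in Col clf, 2.30, 12.96 and 3.02 in C24 clf and 0.13, 5.12 and 0.33 in clf F1. In each group replicate 2 was the highest library, and the parental difference of 1.87 (SE 0.668) had a limma adjusted p of 0.0391 that was lost in 5 of 14 other settings, among them leaving out C24 clf replicate 2 (adjusted p 0.148). C24 clf was higher within each of the 3 same-numbered pairs, and with a replicate block the adjusted p was 2.28e-06. The CDR1 and MLO14 genes were listed at 0 throughout and RLP53 stayed below 0.1 RPKM.

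The 3 jasmonate synthesis genes below the regions, the allene oxide cyclases AOC1 and AOC2 under a shared region at chr3:9404262-9408304 and the reductase OPR3, were well expressed. AOC2 had 253.96, 153.40 and 125.10 RPKM in Col clf and 93.83, 85.37 and 76.87 in C24 clf, a log2 difference of -0.99 (SE 0.244, limma adjusted p 0.00654). AOC1 had 65.3 ± 32.1 and 48.3 ± 8.80 RPKM (SD, n = 3) and OPR3 33.1 ± 12.4 and 33.1 ± 8.35 RPKM, with limma adjusted p of 0.381 and 0.931. AOC1 and AOC2 are close paralogs, and reads shared between them make the split between both uncertain. Of the transcription factors, the homeodomain gene HB-7 (4.05 and 8.81 RPKM in Col clf and C24 clf), the ethylene response factor ERF9 (1.40 and 3.06 RPKM) and the KANADI family gene KAN3 (4.11 and 5.65 RPKM) were higher in C24 clf. Differences of HB-8, a regulator of vascular development, and TCP2, a regulator of leaf growth, did not pass the test.

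**Figure D5:**
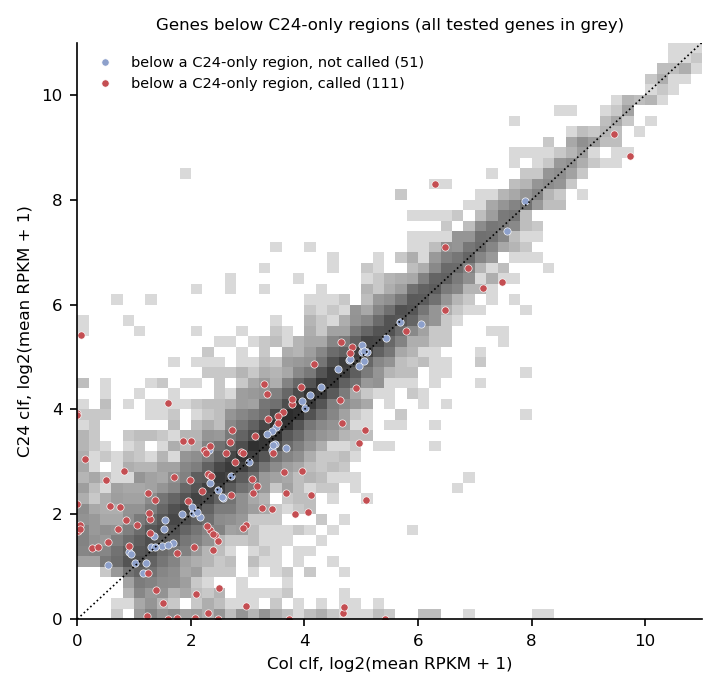
Mean level in C24 clf (y axis) against Col clf (x axis), as log2(mean RPKM + 1), of 162 tested genes below C24-only regions, coloured by the limma call (111 called, 51 not called), over all 17819 tested genes as a grey density. Called genes lie on both sides of the dotted line of equal levels, 59 above by the test and 52 below.

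Some genes below the regions were abundant, and 55 of 489 had a mean of at least 10 RPKM (11.2%, against 27.9% of all genes). The 5 highest were AT2G10940, ELP, AT1G66100, BXL1 and RPS10B. ELP (AT1G12090), an extensin-like protein gene fully covered by its region, had 571 to 767 RPKM over the 9 libraries. Its parental difference of -0.20 had a limma adjusted p of 0.0226 and did not pass after quantile normalization, with -0.11 and an adjusted p of 0.255. AT2G10940 had 779 to 930 RPKM in Col clf and 442 to 477 in C24 clf (log2 difference -0.90, limma adjusted p 2.9e-06). The regions reached only 13.1% of the ribosomal protein gene RPS10B and 18.3% of the beta-xylosidase gene BXL1, neither of which passed.

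Further genes below the 8 regions with the highest lower C24 score and the 5 widest regions were mostly listed at low values or at 0. In the widest region, chr2:16630262-16639277, AT2G39850 had 14.2 to 14.9 RPKM in Col clf and 4.95 to 7.32 in C24 clf (log2 difference -1.13, limma adjusted p 8.1e-06), while AT2G39851 and AT2G39855 stayed under 0.6 RPKM in every library. The region chr3:21764323-21773026 held SADHU10-1 between AT3G58860, AT3G58877, AT3G58880 and AT3G58890, which were at or near 0, and AT3G58900, at 5.51 ± 0.650 and 5.65 ± 0.525 RPKM (SD, n = 3). AT3G58875, AT1G08823, AT1G08827 and AT4G16857 had no deposited value. GPAT6 (AT2G38110), a cutin synthesis acyltransferase below a region of 8509 bp, had 4.48 to 5.48 RPKM in Col clf and 3.79 to 4.32 in C24 clf, with a limma adjusted p of 0.0544, and 0.0477 with a replicate block. UGT72E1 was at 12.07, 15.02 and 12.80 RPKM in Col clf and 2.80, 3.5 and 2.70 in C24 clf (log2 difference -1.84, SE 0.111, limma adjusted p 1.2e-07). AT2G23330 and AT1G66290 had log2 differences of -1.60 and 1.66, but each passed the filter through its higher group alone, Col clf and C24 clf, so these are descriptions. AT1G66300, AT5G24230 and AGL102 did not reach the filter. AT3G49668, AT1G47765, AT1G34690 and AT4G20810 were listed at 0 in all libraries, and AT5G24220 and AT4G20800 stayed under 0.1 RPKM.

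The clf F1 was set against each parent in the same fit, and both comparisons share the F1 libraries. Against Col clf, 20 of the 162 genes were higher (12.3%, where all tested genes had 4.98%) and 36 lower (22.2%, all tested genes 7.03%). Against C24 clf, 38 were higher (23.5%, all tested genes 6.66%) and 59 lower (36.4%, all tested genes 35.8%). With a replicate block the higher count against Col clf became 32. After quantile normalization the counts against C24 clf were 46 higher and 30 lower, with 13.0% and 13.5% of all tested genes. An rRNA gene, AT3G41979, ranged from 122 to 365 RPKM in C24 clf, from 2148 to 17796 in Col clf and from 1363 to 16022 in clf F1. Without the 3 libraries richest in it, Col clf replicate 2 and clf F1 replicates 2 and 3, the counts were 9 higher and 13 lower against Col clf and 27 higher and 17 lower against C24 clf; this leaves 1 F1 library, taken to vary like the others.

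C24-only regions lay close to each other in places. 83 of them (22.4%) were within 20 kb of another, in 36 runs. The longest run, of 5 regions in 38.7 kb, at chr1:24426407-24465114, lay over the beta-expansin genes EXPB2 and EXPB6, YSL7, a transporter of the yellow stripe-like family, UCL1, an F-box gene whose product is known to act on CLF protein, and AMR1. EXPB2, EXPB6, UCL1 and AMR1 were listed at 0 in all 9 libraries. YSL7 had 0.193 ± 0.0321 RPKM in Col clf, 1.57 ± 0.0503 in C24 clf and 0.50 ± 0.123 in clf F1 (SD, n = 3). It passed the filter through C24 clf alone, so these levels are a description. Chromosomes 1 to 5 held 109, 59, 72, 48 and 83 C24-only regions, 3.38% to 4.38% of the merged regions of each.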

How the data were processed

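Samples were grouped by their labels. The members and gene lists were chosen with earlier results of these data known. Per the file headers, the deposited peak lists give positions, tag counts, a score and a fold enrichment (a ratio) for each peak, all set by the authors for each library without pooling. Which program called the peaks was not given in the sources used here. Scores and folds were used only to describe, rank or filter peaks. TopHat, Bowtie and TAIR10 come from the submitters' processing notes. The authors' deposited RPKM files hold 34133 lines each, and 1141 lines of 567 repeated IDs were left out. Read depth and strand use were not given in the sources used here, and unstranded reads of overlapping genes cannot be told apart. Genes were placed with the RefSeq TAIR10.1 table. limma 3.58.1 in R 4.3.3 was fitted to log2(RPKM + 1) of all 9 libraries with a trended prior, after a filter of 1 RPKM in 3 libraries, and was tested on simulated data. log2 differences on this scale understate changes of low genes. Replicates are not labelled as separate cultures, and the spread that the p-values measure may therefore be technical. No pair of mRNA libraries shared more than 0.971% identical values. Same-numbered libraries deviated together in all 9 pairs (r 0.17 to 0.43), so the numbers were taken to pair the samples, from the data. The named genes were the 10 highest and 10 lowest called differences with groups apart, genes below the 8 regions of highest lower C24 score and the 5 widest, list members, and the 5 most abundant; others named were chosen after their values were seen. Alternatives were the score minimum, the overlap, the merging distance, the lists merged, each replicate left out, pseudocount, filter, quantile normalization and the block.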

Additional observations from a re-analysis of the deposited data

Results flagged for a closer look

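Outside the chromosomes used for the choice, 3 of 29 merged regions on the mitochondrial and plastid genomes had a peak in both wild-type C24 lists and in neither wild-type Col list, and 0 had the reverse pattern. These data were in no comparison above, and the organelles carry no histones. The source of these peaks was not tested.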

How the results depend on the processing

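The number of C24-only regions and their presence elsewhere depended on the parental lists. With 1 parental list left out, the number ran from 668 to 2407 (1274 without wild-type Col replicate 1, 668 without Col replicate 2, 2407 and 1136 without C24 replicate 1 and 2), the share in at least 1 F1 list from 19.1% to 93.6%, and the shares in clf Col, clf C24 and clf F1 from 14.0% to 79.3%, 19.6% to 88.0% and 19.0% to 87.4%. A score of at least 100 in the C24 lists alone left 139 regions, 88.5% of them in an F1 list. A score of at least 100 in every list gave 255 regions and clf shares of 71.0%, 84.7% and 81.2%, with 48 genes higher and 17 lower in C24 clf. Col peaks of lower score were dropped as well, so other regions could enter. Peaks covering at least 50% of the region gave 158 regions and clf shares of 37.3%, 72.2% and 62.7%. With the added rule of no clf Col peak, chosen after seeing the data, 171 regions were left, 67.3% in an F1 list, with 22 genes higher and 23 lower in C24 clf. A filter of 5 RPKM gave 34 higher and 33 lower in C24 clf, 11 and 22 for F1 against Col clf, and 24 and 36 for F1 against C24 clf. With genes covered over at least 50%, the counts were 38 higher in C24 clf, 22 lower in F1 than in Col clf and 31 lower than in C24 clf. Quantile normalization gave 30 lower in F1 than in C24 clf. Leaving out the 3 libraries richest in rRNA, chosen after seeing the data, gave 9 and 13 for F1 against Col clf and 17 lower against C24 clf. Each mRNA library left out gave 45 to 60 higher and 45 to 52 lower in C24 clf, 17 to 19 and 25 to 39 for F1 against Col clf, and 34 to 39 and 40 to 65 for F1 against C24 clf. The replicate block gave 65 higher and 56 lower in C24 clf and 32 higher in F1 than in Col clf. Beside GPAT6 it changed the calls of AT3G53040, BAM2 and RPS10B in F1 against Col clf (adjusted p 0.049, 0.0241 and 0.01) and of PR1 in F1 against C24 clf (4.9e-05), and no other call of a gene taken by the naming rule. Of 474 values of 33 named genes, 457 kept direction and call. AT3G58900, at 0.03, changed sign, with -0.12 after quantile normalization, -0.04 to 0.10 when 1 library was left out, and -0.04 when the rRNA-rich libraries were. Some settings let fewer regions or genes enter, and leaving out a parental list let more regions enter. The cause of these shifts was not tested further. Unequal peak lists limit what absence from a list shows.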

Other observations

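Other genes below C24-only regions, picked by name after their values were seen, included 15 cytochrome P450 genes (2.70% of 556, where such symbols make up 0.636% of all genes on chromosomes 1 to 5). Neighbouring members such as CYP71A22, CYP71A23 and CYP71A24 share a region, so they are not independent. CYP71A22 had 14.3 ± 2.60 RPKM in Col clf and 20.6 ± 1.09 in C24 clf, and CYP76C6 7.58 ± 0.370 and 4.28 ± 0.137 (SD, n = 3), with limma adjusted p of 0.0098 and 2.6e-05. CYP71B13 did not pass, and the other 12 did not reach the filter. The small heat shock protein gene HSP17.4, of which the region covered 3.07%, had 2.25 ± 0.370 RPKM in Col clf and 5.55 ± 2.75 in C24 clf (limma adjusted p 0.0304), and HSP17.6A 4.01 ± 1.37 and 8.41 ± 4.85 (limma adjusted p 0.123).

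The major latex protein-like genes MLP43 and MLP423 lay below separate regions and differed in opposite directions. MLP43 had 141 ± 10.6 RPKM in Col clf and 79.0 ± 11.2 in C24 clf (SD, n = 3; limma adjusted p 4.3e-05), and MLP423 87.7 ± 9.25 and 136 ± 12.9 (limma adjusted p 0.00054). IAA1, an auxin-inducible repressor of auxin response, was at 12.50, 7.83 and 8.90 RPKM in Col clf and 3.28, 3.34 and 3.31 in C24 clf (limma adjusted p 7.4e-05). SWEET16, a vacuolar sugar transporter gene in the region of AT3G16670, was at 6.59 ± 0.745 and 2.35 ± 0.517 RPKM (SD, n = 3; limma adjusted p 0.0001).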
